A study of Homo sapiens with 16 samples.

Results

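Untreated Kasumi-1 cells were the 0 h point of a degradation time course, and the 5 libraries described here are all the untreated libraries of the tagged line, out of 16 libraries in the series. Kasumi-1 is an established human cell line derived from acute myeloid leukaemia, in which a translocation joins RUNX1 to RUNX1T1. In the cells used here both alleles of SMARCA5, which encodes the ATPase of ISWI chromatin remodelling complexes, carried the FKBP12F36V tag. That tag lets the degrader dTAG-47 remove the protein, but none of the 5 libraries had received it. The tag is therefore shared by all values below, and the untagged parental libraries were not used. Cells grew in RPMI medium with fetal bovine serum, antibiotics and L-glutamine, and nuclei were isolated for a nuclear run-on. The series' design text calls the libraries biological replicates, and the labels do not say whether they came from separate cultures. The p-values below therefore measure a spread between libraries, which for the ratio of the regions is that over all 5. The 10304 transcripts counted both over the gene body and near the promoter were all retained, of which 9461 had coding and 843 noncoding RefSeq accessions.

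Precision nuclear run-on sequencing (PRO-seq) labels RNA that engaged polymerases are still making, so reads mark where polymerase is at work and not how much RNA a cell holds. Most human genes have a polymerase that starts, travels a short way and pauses near the promoter under the factors DSIF and NELF, until the kinase P-TEFb releases it into the gene body. Reads over the gene body therefore follow productive elongation, whereas reads near the promoter follow polymerase held there, and the relation between the regions differs from gene to gene. In myeloid progenitors and in this leukaemia, lineage genes such as MPO, KIT and RUNX1 are known to be active.

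For orientation, the 150 bases upstream of the RefSeq start are printed for 6 genes on which the results turn. These were DANCR, which had the highest gene-body level, KIT and GFI1 as lineage genes, RPSA with the second highest promoter-proximal level, SLC16A10 with the highest promoter-proximal to gene-body ratio, and HEXIM1, one of the genes with the lowest ratio. The sequences are from RefSeq on GRCh38.p14 and run 5′ to 3′ on the strand of the gene. The counted transcripts are on hg19, so these starts were not compared with the starts used in counting. Capitals mark matches on either strand to the motifs searched. These were TATAAA for the TATA box, GGGCGG for the GC box of the Sp1 family, CCAAT for the box bound by NF-Y, TGCGCA for the core of the NRF1 motif and TGACGTC for the cAMP response element, and no printed match overlaps another.
DANCR, chr4:52712244-52712393, plus strand: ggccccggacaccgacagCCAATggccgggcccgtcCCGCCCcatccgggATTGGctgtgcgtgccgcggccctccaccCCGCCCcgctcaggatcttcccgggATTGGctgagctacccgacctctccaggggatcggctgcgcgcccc
KIT, chr4:54657807-54657956, plus strand: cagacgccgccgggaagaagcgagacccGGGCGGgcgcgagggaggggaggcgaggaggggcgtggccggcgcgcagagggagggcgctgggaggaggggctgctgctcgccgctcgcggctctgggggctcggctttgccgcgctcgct
GFI1, chr1:92483815-92483964, minus strand: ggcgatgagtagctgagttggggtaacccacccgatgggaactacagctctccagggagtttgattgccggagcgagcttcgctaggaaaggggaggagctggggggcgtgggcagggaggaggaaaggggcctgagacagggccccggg
RPSA, chr3:39406570-39406719, plus strand: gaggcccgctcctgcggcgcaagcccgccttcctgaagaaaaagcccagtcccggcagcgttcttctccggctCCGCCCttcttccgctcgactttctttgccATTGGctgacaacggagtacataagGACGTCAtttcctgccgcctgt
SLC16A10, chr6:111087353-111087502, plus strand: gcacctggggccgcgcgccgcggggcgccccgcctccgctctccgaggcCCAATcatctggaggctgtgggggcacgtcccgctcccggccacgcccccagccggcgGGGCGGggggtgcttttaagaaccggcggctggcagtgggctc
HEXIM1, chr17:45148325-45148474, plus strand: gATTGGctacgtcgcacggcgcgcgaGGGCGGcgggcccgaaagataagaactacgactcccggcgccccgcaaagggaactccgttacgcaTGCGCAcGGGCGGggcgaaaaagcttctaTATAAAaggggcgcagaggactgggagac
The ETS, YY1 and RUNX motifs spelled out with the promoter shares further on were searched too and matched none of the 6 windows. A match is a description of the letters and not a bound site. In these windows HEXIM1 alone of the 6 had a TATA box, and GFI1 had no match to any of the motifs searched. DANCR had 3 CCAAT boxes and 2 GC boxes, against 1 of each in RPSA and in SLC16A10. GC content of the printed windows ran from 60.7% in RPSA to 78.7% in KIT.

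The libraries held 11199143 to 30537369 gene-body reads and 2609795 to 4328826 promoter-proximal reads. The column names group them by a number whose meaning is not given, here called set 1 (libraries A and B), set 2 (A and B) and set 3 (A). Promoter-proximal reads made up 9.551% and 12.59% of the reads of set 1, 19.71% and 20.57% of those of set 2 and 12.96% in set 3, so the share moved with the set. Gene-body ranks were close between all libraries, with Spearman's rho over the transcripts of 0.901 to 0.992, and the highest value was between the libraries of set 2. Promoter-proximal ranks gave 0.900 to 0.983. Transcripts share the libraries and their depth, so these correlations describe the tables only.

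The transcribed genes included those of the labelled cell type. Gene-body level is given below as counts per 1000000 gene-body reads (CPM) per kb of listed length, scaled between libraries with TMM factors. Of 14 progenitor and leukaemia markers 11 were measured, and their median gene-body level of 6.79 stood at the 93.6th percentile of all transcripts. MPO, the myeloperoxidase of neutrophil granules (hg19 chr17:56347217-56358296), measured 67.1, 88.5, 90.9, 91.4 and 88.6 in the libraries of set 1 A, set 1 B, set 2 A, set 2 B and set 3 A, which is the order used for all sets of 5 values. Its mean of 85.3 ± 10.3 (SD, n = 5) was the second highest gene-body level of all transcripts. Library A of set 1 was the low one, and the other 4 lay close together.

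KIT, the receptor of stem cell factor (chr4:55524095-55606881), had gene-body levels of 41.7, 41.0, 51.3, 50.4 and 36.8, a mean of 44.2 ± 6.3 (SD, n = 5) and rank 14. Both libraries of set 2 were above the other 3. GFI1, a zinc-finger transcriptional repressor, had gene-body levels of 29.1, 36.5, 48.3, 45.9 and 40.8, with a mean of 40.1 ± 7.65 (SD, n = 5) and rank 21. MYB, a transcription factor that keeps progenitors dividing, averaged 19.6 ± 4.91, and SPI1, the myeloid factor PU.1, averaged 6.79 ± 0.702 (SD, n = 5). Lower in the order were ERG at 3.04 ± 0.0850, CEBPA at 2.03 ± 0.471, CD33 at 1.78 and FLT3 at 0.727, against a median of 1.87 over all transcripts.

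CD34, the surface sialomucin of stem and progenitor cells, had gene-body levels of 2.999, 2.61, 3.30, 3.13 and 8.36. The 4 libraries of sets 1 and 2 lay together and that of set 3 stood above them, so the mean of 4.08 ± 2.41 (SD, n = 5) is carried by a single library. CSF3R, the receptor of granulocyte colony-stimulating factor, was also highest in that library at 14.5, against 8.67 to 9.34 in the other 4. The listed order from MPO through KIT, GFI1, RUNX1 and MYB to SPI1 is one of means. KIT and GFI1, RUNX1 and MYB, SPI1 and CD34, CD34 and ERG, and CEBPA and CD33 are neighbours whose ranges over the 5 libraries overlap.

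RUNX1, which encodes a haematopoietic transcription factor and has a distal and a proximal promoter, was counted as 2 transcripts. The short transcript of 100.9 kb (chr21:36160098-36260987) had gene-body levels of 23.5, 23.5, 24.6, 23.4 and 22.1, a mean of 23.4 ± 0.856 (SD, n = 5) and rank 66. The long transcript of 261.5 kb, which contains the short one, had a gene-body mean of 13.3 ± 0.663. Reads inside the short transcript count for both. Near the promoter the order was the other way in set 1, in which the long transcript had 411.1 and 327.5 CPM of the promoter-proximal reads and the short one 78.8 and 89.0. In set 2 the values were 250.3 and 279.4 for the long and 216.5 and 290.2 for the short transcript, so the ranges of the starts overlapped there. Library A of set 3 had 172.5 for the long and 83.2 for the short transcript. The promoter-proximal count of the short transcript was lower in set 1 than in set 2 by 1.58 on the log2 scale (adjusted p = 0.045, edgeR quasi-likelihood test with Benjamini-Hochberg adjustment), while that of the long one did not pass the test (adjusted p = 0.338). The long transcript is described in addition to the rule that names the transcript with the higher gene-body level, and was chosen after its values were seen. In these counts, reads of the normal and of the rearranged RUNX1 allele cannot be told apart over the part that the fusion keeps.

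The other marker lists gave few measured genes. The counts were already filtered, judging by their names, so a gene missing from them is not thereby shown to be untranscribed. For the neutrophil granule list 4 of 14 were measured, with CSF3R at a gene-body level of 10.2, CTSG, the protease cathepsin G, at 2.37, AZU1 at 1.54 and the factor CEBPE at 0.715. Monocyte and macrophage genes gave 2 of 14, MS4A7 at 1.75 and the lysosomal protein CD68 at 0.663. From the erythroid list 4 of 14 were measured, with a median gene-body level of 6.10 at the 91.9th percentile, close to the progenitor list. Of these 4, 3 were among the highest 10% of gene-body levels. Their median library level ran from 2.75 to 6.79. TFRC, the transferrin receptor that all dividing cells use, stood at 7.15, the erythroid factor KLF1 at 6.88, the erythropoietin receptor EPOR at 5.31 and TAL1 at 1.81. For KLF1 the 5 libraries had 3.01, 4.80, 10.7, 10.2 and 5.69, with both of set 2 highest. KLF1 and TAL1 had promoter-proximal levels of 0.727 and 0.719 CPM. Of the megakaryocyte list 0 of 12 were measured, of the B cell list 1 of 12 (CD22, gene-body level 0.156, rank 10301), of the T and NK cell list 1 of 18 (CD4, 1.99), of the mast cell, basophil and eosinophil list 1 of 12 (GATA2, 1.55) and of the epithelial and stromal list 1 of 12 (EPCAM, 1.59). The part of other cells in these values was not tested.

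**Figure D1:**
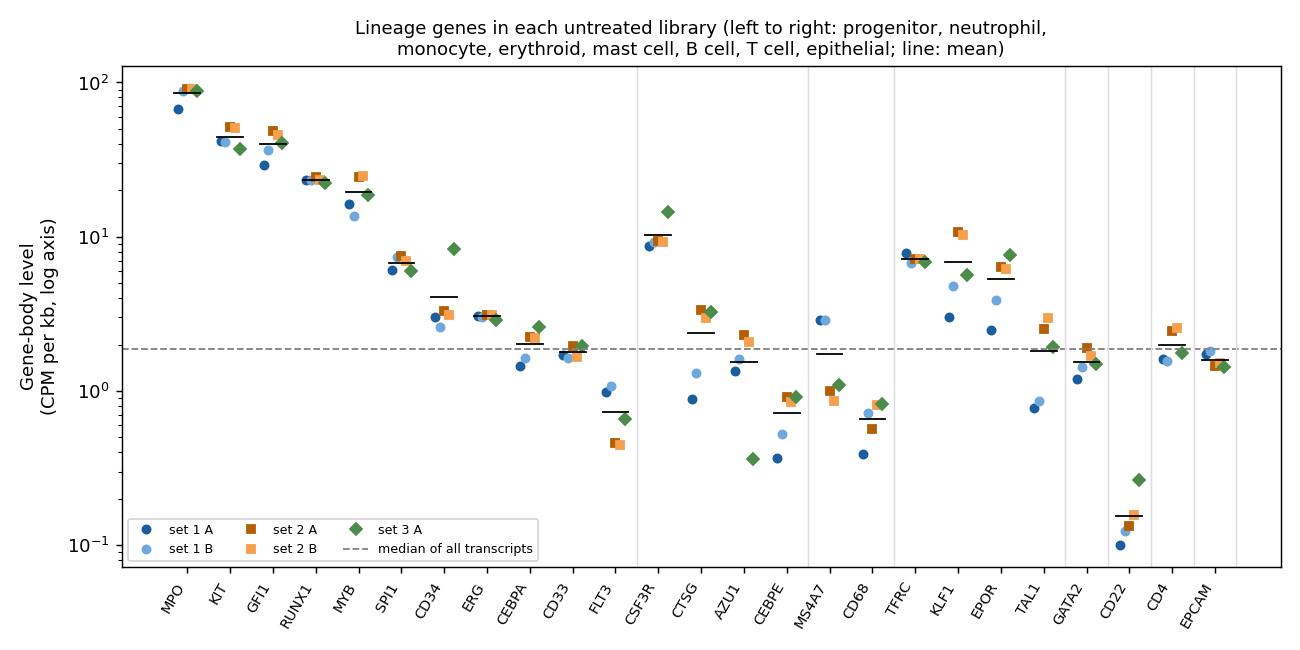
Gene-body level (y axis, log scale, CPM per kb) of the measured progenitor markers and of the other marker genes (x axis), with 1 point per library coloured by set, the mean of the 5 libraries as a short line and the median of all transcripts dashed. MPO sits highest at a mean of 85.3, and for CD34 and CSF3R the point of set 3 lies above the other 4.

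SMARCA5, the tagged gene, was transcribed at a gene-body level of 3.20, 2.59, 2.16, 2.24 and 2.196, with a mean of 2.48 ± 0.440 (SD, n = 5) and rank 3715 of 10304. Both libraries of set 1 were above the other 3. Its promoter-proximal level was 32.7 ± 3.01 CPM, against a median of 40.1 over all transcripts.

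The 12 highest gene-body levels included noncoding RNA genes, MPO, a histone gene and 2 ribosomal protein genes. Over all transcripts the gene-body level had a median of 1.87, a 90th percentile of 5.29 and a maximum of 121.5. That maximum was DANCR, a long noncoding RNA that hosts a small nucleolar RNA, with 114.7, 120.2, 134.1, 144.1 and 94.5 and a mean of 121.5 ± 19.0 (SD, n = 5). After DANCR and MPO followed the histone gene HIST1H3D at 81.7 ± 51.9, for which both libraries of set 2 (125.2 and 150.2) exceeded the other 3 (39.7 to 48.9). HIST1H3D is listed at 2.45 kb and in RefSeq overlaps the coding gene H2AC7, whose reads cannot be told apart from its own. LOC100506548 at 67.3, C15orf37 at 63.5 and MALAT1, a nuclear noncoding RNA, at 63.1 ± 14.9 came next. The remaining 6 of the 12 highest were ZNFX1-AS1 at 61.7, RCC1 at 55.7, PRDX1 at 50.3, the paraspeckle RNA NEAT1 at 50.1, RPS23 at 46.5 and RPL13 at 45.3. LINC00324 at 44.8 lay just outside.

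Transcript length bears on these ranks. DANCR is listed at 1.68 kb, and the 200 highest gene-body levels had a median length of 6.58 kb against 24.8 kb over all transcripts. When 1 kb was taken off each length, 83 of the 100 highest stayed among the 100 highest, while DANCR went from 121.5 to 299.1. Among transcripts of at least 10 kb the 8 highest were MPO, ZNFX1-AS1, RCC1, PRDX1, KIT, PCNA, GFI1 and HNRNPA2B1. RCC1, the nucleotide exchange factor of RAN, was the steadiest of these at 55.7 ± 1.93 (SD, n = 5). PCNA, the sliding clamp of DNA replication, spread most. Its gene-body levels were 17.9, 27.5, 68.0, 71.0 and 16.7, with both libraries of set 2 more than 2-fold above each of the other 3.

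Genes that carry a small nucleolar RNA in RefSeq were frequent among the most transcribed. Of the 200 highest gene-body levels 197 matched a RefSeq gene, and 54 of them (27.4%) overlapped a small nucleolar RNA, against 379 of 10269 (3.69%) over all matched transcripts. For the 200 highest promoter-proximal levels the count was 23 (11.5%). Noncoding accessions made up 18.5% of the 200 highest gene-body levels and 8.18% of all transcripts. Examples are DANCR with SNORA26, ZNFX1-AS1 with the SNORD12 group and RCC1, whose RefSeq locus overlaps SNHG3 and both SNORA73 genes. Strand was not stated for the counting, so reads of overlapping or antisense genes cannot be told apart. Of the 10304 transcripts 1268 overlapped another listed one, among them ZNFX1-AS1 with ZNFX1 and PRDX1 with MMACHC.

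**Figure D2:**
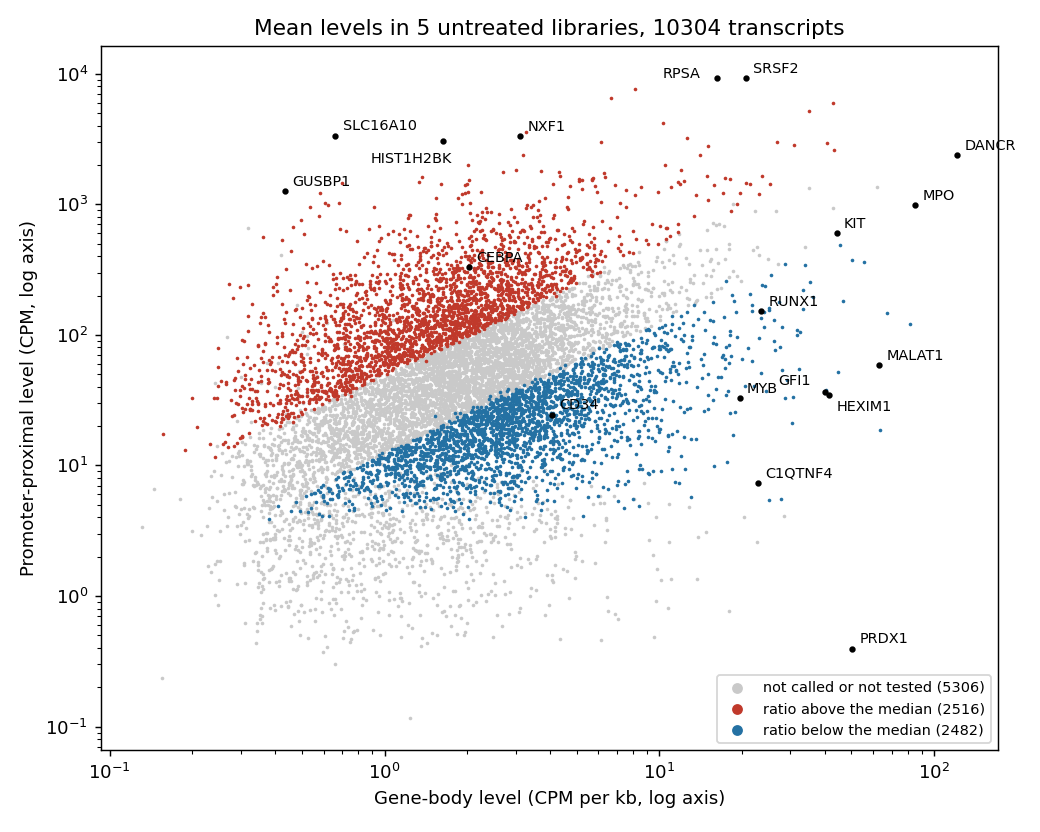
Mean gene-body level (x axis, log scale) against mean promoter-proximal level (y axis, log scale) of the transcripts, coloured by whether the promoter-proximal to gene-body ratio was called above or below the median, with some genes marked. DANCR and MPO lie furthest right, SRSF2 and RPSA highest, and the cloud is broad in both directions.

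Near the promoter another set of genes led. Promoter-proximal level is given as CPM of the promoter-proximal reads with TMM factors, with 1 window per transcript whose size was not given and is taken as equal. Its median was 40.1, the 90th percentile 205.7 and the maximum 9277. SRSF2, a splicing factor rich in serine and arginine (chr17:74730197-74733493), had 7118, 10221, 11336, 9752 and 7960, a mean of 9277 ± 1714 (SD, n = 5). RPSA, the laminin receptor and small-subunit ribosomal protein whose promoter is printed above, had 5869, 11479, 12072, 9646 and 7210, with a mean of 9255 ± 2678. The ranges of SRSF2 and RPSA overlapped, so their order is not separated. SRSF2 also shares its position with the listed gene MFSD11, and with no strand stated their reads cannot be told apart. PPIF, the mitochondrial cyclophilin, followed at 7647 ± 2602, with library B of set 1 at 3280 and the other 4 between 7327 and 9776.

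Cytoplasmic actin ACTG1 had a promoter-proximal level of 5981, the phosphatase subunit PPP1R10 had 5182, and OBFC2A, a single-strand DNA binding protein, had 4175. Also among the 12 highest were HCG11 at 3588, the aromatic amino acid transporter SLC16A10 at 3347, the mRNA export receptor NXF1 at 3318, nucleophosmin (NPM1) at 3197 and the histone gene HIST1H2BK at 3028. Thymidine kinase TK1 at 3005 lay just outside. PPP1R10 had 5741 to 6796 in the 4 libraries of sets 1 and 2 and 1461 in set 3.

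Only part of the genes was high in both regions. The 100 highest gene-body and the 100 highest promoter-proximal levels had 19 transcripts in common, among them ACTG1, C6orf48, CIRBP, DALRD3, DANCR, DDX5, EIF4A2, GAS5, HNRNPA2B1, MPO, PPP1R10, RPL10, RPLP0, RPS14, RPS20, SNHG12, SRSF2 and ZNFX1-AS1. Of the 1000 highest, 251 were in common. Spearman's rho between the regions was 0.312 over 9310 transcripts, which share libraries. MPO was in both lists, with promoter-proximal levels of 852.5, 828.2, 1336, 1147 and 743.2 and rank 95. KIT had rank 195 near the promoter with a mean of 602.6 ± 131 (SD, n = 5), whereas GFI1, with a mean of 36.7 ± 16.7, was below the median transcript in that region. PRDX1, a peroxiredoxin with rank 9 in the gene body, had 0, 1, 4, 0 and 2 raw promoter-proximal reads.

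For 826 transcripts the gene body held a mean of at least 100 reads and the promoter-proximal window under 20. The tables count 1 window per transcript, and how its start was chosen is not given. A gene read from another start than the listed one therefore has few reads in that window, and its ratio describes the listed window only.

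The ratio of the regions was next compared within the cells. It is the promoter-proximal reads divided by the gene-body reads per kb, in kb, so that a ratio of 4 kb means as many reads near the promoter as on 4 kb of gene body. Library medians were 2.56 and 3.39 kb in set 1, 5.80 and 6.30 kb in set 2 and 3.73 kb in set 3. Each transcript is therefore given relative to its library's median, as a log2 difference. After a filter on low counts 9310 transcripts were tested and 994 were not. Of those tested, 2516 (27%) lay above the median and 2482 (26.7%) below it, at an adjusted p under 0.05 in edgeR's quasi-likelihood test and at least 2-fold. These percentages are the background for each list below. The ratios ran from 0.0328 to 829 kb, and the middle 50% lay between 1.94 and 8.84 kb.

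More strongly transcribed genes had lower ratios. In the lowest of 5 equal groups by gene-body level the median log2 ratio was 0.82 above the library median, with 44.6% called above and 6.04% below. In the highest group it was -0.94, with 13.2% above and 48.2% below. The gene-body level is the denominator of the ratio, so part of this relation is built into it, and rho was -0.373 over 9310 transcripts. By length, the median log2 ratio was -0.34 for transcripts of 5 to 10 kb and 0.41 for those above 100 kb. Coding and noncoding transcripts had medians of -0.01 and 0.01.

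**Figure D3:**
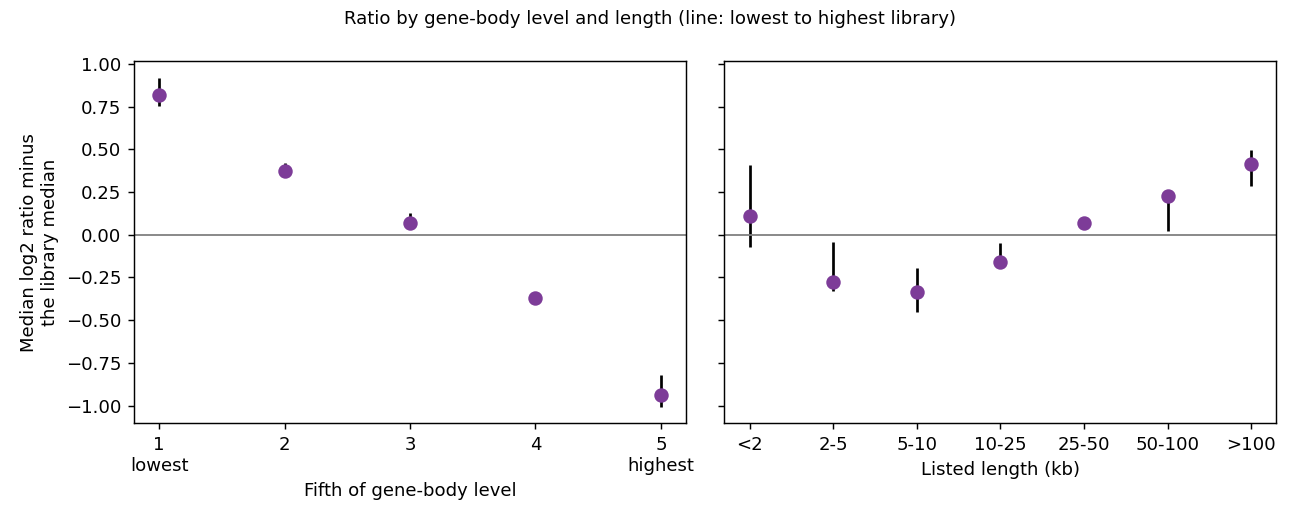
Log2 promoter-proximal to gene-body ratio relative to the library median (y axis) by group of gene-body level (5 equal groups) and by length class (x axis), with 1 point per class for the median over transcripts and a line from the lowest to the highest library. Medians fall from 0.82 in the lowest to -0.94 in the highest group by gene-body level, and rise from -0.34 at 5 to 10 kb to 0.41 above 100 kb.

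The highest ratio, among the 8782 transcripts with at least 2 kb, 100 gene-body reads and 20 promoter-proximal reads on average, was that of SLC16A10 (chr6:111408781-111544606). Its promoter-proximal levels were 4703, 3801, 3644, 2517 and 2072, and its gene-body levels 0.7099, 0.732, 0.589, 0.590 and 0.689, which is rank 9075. The ratio of 829 kb was 7.65 ± 0.46 (SD, n = 5) above the library median on the log2 scale, and every library was above 6.9. The gene thus ranked 9 near the promoter and 9075 over its 135.8 kb body.

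Next came the pseudogene GUSBP1 at 490 kb, C2orf76 at 351 kb and NDRG1, a gene known for its induction by hypoxia and differentiation, at 313 kb. NDRG1 had a promoter-proximal level of 3074 CPM in set 3 and 796 to 1342 in the other 4 libraries, while its gene-body level was 0.641 to 0.840 throughout. HIST1H2BK at 307 kb, C7orf31 at 300 kb, the ubiquitin-conjugating enzyme UBE2D1 at 286 kb, SEPT7L at 261 kb, GPATCH2 at 245 kb, GIN1 at 244 kb, CCDC62 at 238 kb and GTDC1 at 226 kb completed the 12. On the log2 scale these 12 lay 5.78 to 7.65 above the median, and MAGI3 at 5.67 lay just outside. They were chosen by the ratio, so no test is read from these values. GUSBP1 and SEPT7L belong to families of near-identical copies, and their counts are uncertain because the handling of reads with several matches was not given. In RefSeq, C2orf76 overlaps the coding gene DBI, and HIST1H2BK, listed at 8.565 kb, overlaps the coding gene H4C9.

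At the other end, C1QTNF4 had the lowest ratio of the 8782, at 0.052 kb and 6.31 ± 0.67 (SD, n = 5) below the median on the log2 scale. This gene, of the complement C1q and tumour necrosis factor family, had gene-body levels of 16.2, 18.6, 26.0, 28.9 and 24.3 and promoter-proximal levels of 5.43, 6.26, 3.37, 12.5 and 8.97. The next were C15orf37, LOC100507331, IDI2-AS1, the chromatin reader ING1, LOC90784, LOC100129387, AOC2 and ALDOA, with ratios from 0.0544 to 0.129 kb. HEXIM1, GFI1 and INO80B-WBP1 closed the 12 at 0.143, 0.147 and 0.152 kb, and MALAT1 lay just outside. C15orf37, LOC100507331, IDI2-AS1 and LOC100129387 each overlap another listed gene. In RefSeq, ING1 also overlaps CARS2, ALDOA overlaps LOC112694756, HEXIM1 overlaps HEXIM2-AS1, and INO80B-WBP1 overlaps both INO80B and WBP1. Reads of such neighbours cannot be told apart here. ALDOA, the glycolytic aldolase, did not pass the filter and was not tested.

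HEXIM1 inhibits P-TEFb, the kinase that releases paused polymerase. Its gene-body levels were 25.7, 29.9, 72.5, 50.2 and 29.6, with a mean of 41.6 ± 19.8 (SD, n = 5) and rank 18, and both libraries of set 2 were above the other 3. Promoter-proximal levels were 15.0, 39.7, 31.7, 33.7 and 53.1, against a median of 40.1 over all transcripts. The log2 ratio was -4.85 ± 0.86 relative to the library median. GFI1 gave -4.81 ± 0.38 with -5.13, -5.01, -4.69, -4.19 and -5.03. Of all tested transcripts RPS27A, which encodes ubiquitin fused to a ribosomal protein, had the lowest ratio at 0.0328 kb. With a mean of under 20 promoter-proximal reads it stood outside the ranked transcripts.

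**Figure D4:**
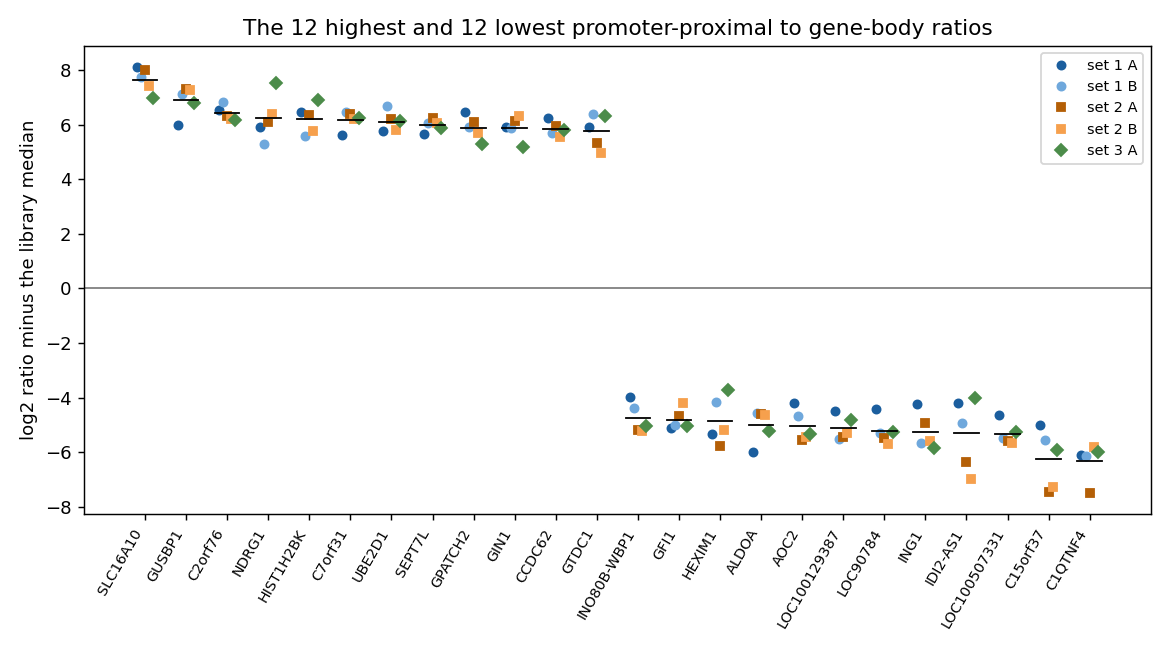
Log2 promoter-proximal to gene-body ratio relative to the library median (y axis) of the 12 highest and the 12 lowest transcripts (x axis), with 1 point per library coloured by set and a short line at the mean. SLC16A10 lies at 7.65 and C1QTNF4 at -6.31, and for NDRG1 the set 3 point at 7.54 is above the other 4.

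The 100 extreme transcripts of each measure were compared between the sets. Of the 100 highest gene-body levels in sets 1 and 2, 79 were the same, and for the promoter-proximal levels 81. For the 100 highest ratios the count was 68 and for the 100 lowest 52. Between sets 1 and 3 the counts were 76, 75, 67 and 49 in the same order of measures, and between sets 2 and 3 they were 85, 75, 71 and 53.

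Lineage genes leaned to low ratios. Among the progenitor and leukaemia markers 1 of 11 was called above the median and 8 below (9.09% and 72.7%, against 27% and 26.7% over all tested transcripts), and the median log2 ratio was -1.95. This list stands high in gene-body level, and in the highest of the 5 groups by that level 48.2% of all tested transcripts were called below. MPO gave -0.92, -1.36, -0.72, -0.97 and -1.51 in the 5 libraries, with a fitted log2 difference of -1.10 (SE 0.205, adjusted p = 0.00019, edgeR quasi-likelihood test). The 5 values share their sign, and set 2 does not stand apart. KIT at -0.84 (SE 0.204, adjusted p = 0.00161, edgeR) passed the p threshold but not the 2-fold one, and FLT3 was not called either. MYB measured -3.93, ERG -3.34, CD33 -2.10, the short RUNX1 transcript -2.12 and CD34 -1.95. ERG had 13, 14, 52, 44 and 18 raw promoter-proximal reads and CD33 a mean of 35.4, so their ratios describe the listed windows only. Gene-body reads of the short RUNX1 transcript can also come from the long one, while its promoter-proximal window is its own. The long RUNX1 transcript was at -0.21 and was not called (adjusted p = 0.397, edgeR). CEBPA, the intronless gene of a granulocytic transcription factor, was the 1 marker above, with promoter-proximal levels of 184.2, 229.1, 408.9, 424.9 and 393.7 and a log2 ratio of 2.69 ± 0.24 (SD, n = 5).

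The list of haematopoietic transcription factors also had more genes below than above, and RUNX1, MYB, GFI1, SPI1, ERG and CEBPA are in both lists. Of 33 listed, 23 were measured at a median gene-body percentile of 92.0, and 20 were tested, with 2 above and 14 below and a median log2 ratio of -1.45. LYL1, a partner of the E proteins, had a gene-body level of 33.2 and a log2 ratio of -2.37. Its cofactor LDB1 measured -4.17, LMO2 -1.68, BCL11A -2.38 and IKZF1 -1.12. FLI1 at -0.25 and ZEB2 at -0.01 were not called, and CEBPA and CEBPE (2.75) were the 2 above. HOXA9, TAL1 and GATA2 had too few promoter-proximal reads for the test. Among 14 tested receptors and surface antigens, of which KIT, CD34, CD33 and FLT3 are also progenitor markers, 2 were above, the phosphatase PTPRC (CD45) at 2.34 and HAVCR2 at 1.85, and 7 were below, including the common gamma chain IL2RG at -2.47.

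The genes of pausing and release themselves spread to both sides. Of 34 listed, 29 were measured and 28 tested, with 7 above (25%), 8 below (28.6%) and a median log2 ratio of 0.04. The DSIF subunit SUPT5H was above at 1.35, as were the NELF subunit TH1L (NELFCD) at 1.76, the elongation factor ELL at 2.83, the PAF complex genes CTR9 at 2.50, LEO1 at 2.48 and RTF1 at 1.79, and the kinase CDK12 at 1.54. CDK9, the kinase subunit of P-TEFb, was below at -1.63, as were HEXIM1, TCEA1 at -2.12, SUPT6H at -2.03, COBRA1 (NELFB) at -1.69, EAF1 at -1.19, AFF1 at -1.17 and the cyclin CCNK at -1.02. MEPCE, which caps the 7SK RNA that holds P-TEFb, had a gene-body level of 16.1, second in the list to HEXIM1 at 41.6.

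Ribosomal protein genes were among the most transcribed but did not share 1 ratio. Of 78 listed, 73 were measured, 68 of them among the highest 10% of gene-body levels, with a median level of 14.3 and a median log2 ratio of -0.39. Called above were 19 and below 27 of 73 (26% and 37%). RPSA was furthest above at 4.52 with 3.97, 5.08, 4.76, 4.44 and 4.35, followed by RPL7 at 4.01 and RPL10A at 2.91. RPS27A was lowest at -6.97, then RPS19 at -3.10 and RPS29 at -2.96. RPS23 and RPL13, the most transcribed of the family, were below at -2.66 and -1.19, while RPL10 at 1.19 and RPS20 at 1.81 were above. Many of these genes have processed pseudogenes with near-identical sequence, so their counts are uncertain by an amount the tables do not show. Of 28 tested ribosome biogenesis genes 4 were above, NPM1 at 3.40 among them, and 8 below, among them UBTF, which activates RNA polymerase I, at -3.67.

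Immediate early and heat shock genes, textbook examples of pausing, were mixed. Of 33 immediate early genes 21 were measured at a median promoter-proximal percentile of 89.3, and 7 were above and 4 below (33.3% and 19%). NR4A2 at 3.77, JUNB at 2.97, IER5 at 2.91, EGR1 at 2.84, FOSL2 at 2.37, DUSP1 at 2.35 and JUN at 1.92 were above. JUND at -2.66, KLF10 at -1.84, FOSL1 at -1.72 and IER2 at -1.05 were below. MYC had a gene-body level of 33.8 ± 9.67 (SD, n = 5) and rank 27, and its log2 ratio of -0.75 was not called. EGR1 varied in the gene body, at 1.01, 0.930, 2.42, 3.17 and 0.367, with both libraries of set 2 high and set 3 low.

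Among 19 tested heat shock genes 8 were above and 4 below. HSPA1B, an inducible HSP70 gene, had a log2 ratio of 5.24 (155 kb) and promoter-proximal levels of 476.2, 366.2, 1362, 1814 and 752.9, both libraries of set 2 being highest. Its near-identical copy HSPA1A did not pass the filter, and reads of the pair cannot be told apart with confidence. DNAJA1 measured 1.90, whereas HSP90AA1 was below at -3.45 and DNAJB6 at -2.68. The constitutive HSPA8 had the highest gene-body level of the list at 22.0 and was not called at -0.24.

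Glycolysis genes combined high gene-body levels with low ratios. Of 23, 19 were measured at a median gene-body percentile of 90.9, and 18 were tested, with 2 above and 10 below (11.1% and 55.6%) and a median of -1.10. In the highest of the 5 groups by gene-body level 48.2% of all tested transcripts were below. GPI at -4.66, the hexokinase HK2 at -4.59 and PGAM1 at -3.26 were lowest of those tested, which leaves out ALDOA, and ENO1 at 1.89 and ALDOC at 3.91 were above. ENO1 had the highest gene-body level of the list at 17.3. Respiratory chain and ATP synthase genes, with 47 of 47 measured, had 15 above and 6 below of 45 tested (33.3% and 13.3%), led by COX8A at 4.14 and NDUFA1 at 3.79, and CYC1 at -2.39 was below.

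Mitosis genes lay on the high side, with 17 of 35 above and 3 below (48.6% and 8.57%) and a median of 0.97. The kinase AURKB measured 3.05, cyclin CCNB2 3.01, the kinetochore subunit SPC25 2.82 and the kinesin KIF4A 2.64. CDC20 at -1.32, the transcription factor FOXM1 at -1.36 and SPC24 at -1.18 were below. DNA replication genes gave 14 above and 13 below of 41 (34.1% and 31.7%), from TK1 at 4.28, with a promoter-proximal level of 3005, to PCNA at -4.48, with one of 37.5. Cholesterol synthesis genes gave 4 above and 4 below of 24 tested, NSDHL at 3.65 and INSIG1 at -3.00 being the extremes. Interferon-stimulated genes were little transcribed, at a median gene-body percentile of 15.9 for 13 of 26 measured, and 3 were above and 2 below of 11 tested. Of 32 replication-dependent histone genes 3 were measured, and HIST1H2BK and HIST2H2BE (5.16) were above while HIST1H3D (-3.91) was below. HIST1H2BK and HIST1H3D each overlap another coding gene in RefSeq, and their ratios describe the listed lengths of 8.565 and 2.45 kb.

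**Figure D5:**
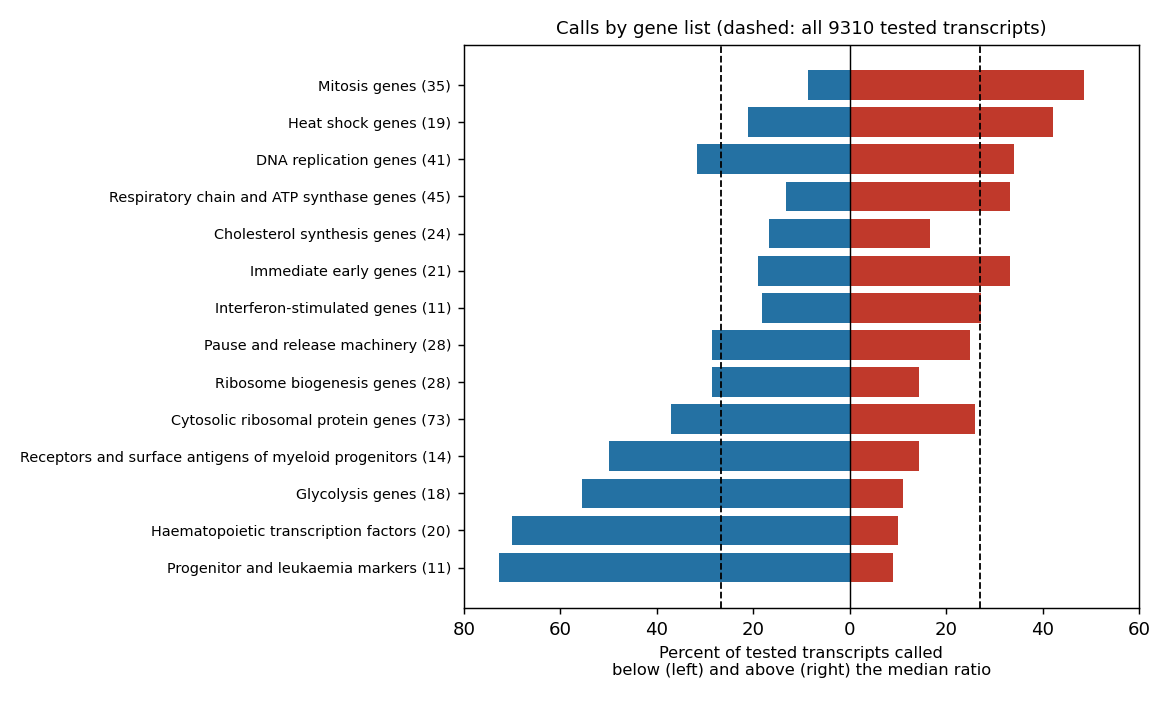
Percent of the tested genes of 14 lists (rows, number tested in brackets) called below (bars to the left) and above (bars to the right) the median promoter-proximal to gene-body ratio, with dashed lines at 26.7% and 27% for all 9310 tested transcripts. Among these lists, with 11 to 73 genes tested, progenitor markers reach furthest left at 72.7% and mitosis genes furthest right at 48.6%, and lists with 4 or fewer tested are not drawn.

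Promoter letters were compared between groups of transcripts as a description. A RefSeq window of 250 bases before to 50 bases after the start was matched for 8447 transcripts. A CCAAT box (CCAAT, either strand) was in 36.9% of all windows, in 53.8% of the 200 highest promoter-proximal levels (171 matched), in 47.6% of the 200 highest ratios (164 matched) and in 36.4% of the 200 lowest (162 matched). TATAAA was in 5.41% of all windows and in 11.1%, 9.15% and 5.56% of those groups. The ETS motif CCGGAAG was in 21.0% of all windows, in 23.8% of the highest and in 14.2% of the lowest ratios. GATGGCG, the YY1 motif, was in 8.50% of all windows, in 9.10% of those of the 7266 matched transcripts eligible for the ratio ranks, and in 7.32% and 3.09% of the highest and lowest ratios. Among those 7266 windows the CCAAT box was in 37.3%, TATAAA in 5.01% and the ETS motif in 22.1%. The RUNX motif TGTGGT was in 9.60% of all windows and in 9.15% and 9.26% of the highest and lowest ratios. In the windows of the 826 transcripts with few promoter-proximal reads (661 matched), GGGCGG was in 57.0% against 69.6% of all, and the median CpG observed over expected was 0.712 against 0.844.

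The untreated libraries also differed between sets, although genotype, treatment and time were the same. In edgeR's quasi-likelihood test over 10302 transcripts 1739 gene-body counts (16.9%) were higher and 1876 (18.2%) lower in set 1 than in set 2 at an adjusted p under 0.05. Of 10009 promoter-proximal counts 88 (0.879%) were higher and 29 (0.29%) lower. Since set 3 is a single library, the error in this test comes from the differences within sets 1 and 2. The number called changed with the libraries kept. In both regions it fell without a library of set 2 and rose without a library of set 1. Such a fit leaves a lone library in that set, so its error comes from the remaining pair of libraries only. What the sets are is not given, so a difference between them cannot be told apart from any other difference between those libraries.

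RCSD1, an actin-capping regulator, had gene-body levels of 2.64, 2.77, 0.493, 0.508 and 0.667, higher in set 1 by 2.43 on the log2 scale (SE 0.0968, adjusted p = 3.51e-06, edgeR quasi-likelihood test). ZNF35 (2.51), NPR3 (2.37), ZNF91, SKIL and MFAP4 were the other 5 of the 6 largest in this direction. PFKFB4, a regulator of glycolysis, had 0.775, 0.778, 4.29, 4.19 and 2.50, a log2 difference of -2.45. HNRPLL (-2.72), the growth factor midkine MDK (-2.42), BNIP3 (-2.15), ZNF503-AS2 and TNNT1 were the others. Both libraries of each set lay together for RCSD1 and PFKFB4, with set 3 nearer to set 2 for RCSD1 and between the sets for PFKFB4. BNIP3 and PFKFB4 are both known as hypoxia-induced genes. NDRG1, described above as induced by hypoxia, differed by 0.26 in gene-body counts and did not pass the test (adjusted p = 0.133, edgeR quasi-likelihood test). A part of hypoxia in the differences between sets was not tested.

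By list, 14 of 41 DNA replication genes were higher and 1 lower in set 1 in gene-body counts, the lower one being PCNA at -1.61. Of 35 mitosis genes 1, CDK1, was higher and 15 were lower, CDC20 at -1.05 among them. Of the 20 heat shock genes 0 were higher and 8 lower, of 21 immediate early genes 1 and 9, of 25 cholesterol synthesis genes 1 and 8, and of 13 interferon-stimulated genes 5 and 0, beside 16.9% and 18.2% over all transcripts. Of 73 ribosomal protein genes 19 were higher and 11 lower. Of the 11 progenitor markers 1 was higher and 3 lower, and these were FLT3 and, below, KIT, GFI1 and MYB. MYB differed by -0.71 (SE 0.0901, adjusted p = 0.000811, edgeR quasi-likelihood test), with 16.4 and 13.7 in set 1 against 24.4 and 24.9 in set 2. MPO did not pass the test (adjusted p = 0.144). Of the 4 erythroid genes 3 were lower in set 1, TAL1 by a log2 difference of -1.74, KLF1 of -1.42 and EPOR of -0.98. Of 4 neutrophil granule genes 1 was lower, CTSG at -1.53, and 0 were higher. Of 2 monocyte and macrophage genes 1 was higher, MS4A7 at 1.62, and 0 were lower. These lists hold few measured genes, and the part of such genes in the other differences was not tested.

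Near the promoter the largest differences were ARID3B (2.86), C6orf62, TCAM1P, HSH2D, EGFL7 (2.37) and XXYLT1 above in set 1, and HSPH1 (-2.30), TEX19, KIF26B, PTPRM, C3orf71 and AEBP2 below. HSPH1, a large HSP70-type chaperone, had promoter-proximal levels of 33.5, 45.5, 212.1, 181.6 and 164.6, the libraries of set 1 being low. Of 20 heat shock genes 3 were lower in set 1 near the promoter, HSPH1, HSPA1B and HSPD1, and 0 were higher, beside 0.29% lower and 0.879% higher over all transcripts. Without a library of set 2 only 10 or 4 transcripts in all were lower, and at an adjusted p under 0.01 edgeR called none, against 910 lower at an unadjusted p under 0.05 and 121 lower with DESeq2. ERG was also lower, at -1.93 (adjusted p = 0.049, edgeR quasi-likelihood test), with 4.15 and 3.37 in set 1 and 13.5 and 15.3 in set 2.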

How the data were processed

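PRO-seq was measured in 16 libraries, of which the 5 untreated tagged ones were used. Reads were trimmed with Trimmomatic 0.32, aligned to hg19 with Bowtie2 2.2.2 and handled with SAMtools, HOMER, DESeq and DESeq2, per the submitters' processing notes, which give no order. The authors deposited whole-number read counts per transcript for the gene body and for the promoter-proximal region, in tables already filtered on low values judging by their names. The sources used here do not give the counting tool, windows, strand setting, treatment of reads with several matches or the filter itself. The gene-body and the promoter-proximal table of 1 comparison were used, out of 6 deposited, and 46 other columns of per-sample values were not. Columns carry no replicate number, and no 2 libraries held identical values.

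From the counts, levels were computed as CPM (counts per 1000000 reads) with TMM factors (edgeR 4.0.16, R 4.3.3), for gene bodies also per kb of listed length, end minus start. The ratio used a pseudocount of 0.5. It was tested with edgeR's quasi-likelihood test on both regions in 1 model, with the library as a block, offsets for length and for each library's median ratio, edgeR's filterByExpr with a minimum count of 10, and Benjamini-Hochberg adjustment. A transcript was called at an adjusted p under 0.05 and at least 2-fold. The sets were compared per region in all 5 libraries, at an adjusted p under 0.05. DESeq2 1.42.0 and limma 3.58.1 served as alternatives. Length filters of 2 and 10 kb, leaving out each library, other scaling and stricter thresholds were also tried. On simulated counts the ratio test recovered 99% of transcripts changed 3-fold and made 5 false calls among 9310. The self-test of the sets recovered 85% of gene bodies changed 2-fold (9 false of 10302) and 79% of promoter-proximal counts (12 false of 10009). Each simulation gave all transcripts the same dispersion (spread beyond counting error), and that of the sets gave both regions the same one. The measured promoter-proximal counts spread more than the gene-body counts, so these rates need not hold for the measured data.

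Named genes were the 12 highest levels per region, the 8 highest gene-body levels from 10 kb, the 12 highest and lowest ratios, the 6 largest differences between sets per direction and region with a mean count of at least 100, members of the lists, and SMARCA5. Some genes that the rule names are not reported here. Of several transcripts of a symbol the one with the higher gene-body level was taken. The genes and lists were chosen with earlier results of these data known, and levels, ranks and motif shares are descriptions with no test. RefSeq entries (GRCh38.p14) matched 10057 transcripts by accession and 212 by symbol or synonym. Promoters of the 200 highest gene-body levels were left out because 79.5% of them matched, under the 80% needed. Depth was 11199143 to 30537369 gene-body and 2609795 to 4328826 promoter-proximal reads per library, and counting error of a count does not cover PCR copies.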

Additional observations from a re-analysis of the deposited data

Results flagged for a closer look

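Of 76 groups of 5 library values for the named genes, 7 had a single library far from the other 4, by Dixon's test with a critical value of 0.71. Chance alone flags about 1 group in 20. The gene-body level of MPO was 67.09 in library A of set 1, with the others between 88.48 and 91.42. RCC1 was 58.98 in library B of set 1 against 53.93 to 55.29. In the library of set 3, CD34 had a gene-body level of 8.36 against 2.608 to 3.3 and CSF3R 14.49 against 8.667 to 9.336, while the promoter-proximal level of PPP1R10 was 1461 against 5741 to 6796. The log2 ratio relative to the library median was 5.615 for C7orf31 in library A of set 1, against 6.212 to 6.451, and -7.49 for C1QTNF4 in library A of set 2, against -6.138 to -5.807. Of the 7 values 3 came from set 3, which is a single library, so no second library of that set shows whether they repeat.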

How the results depend on the processing

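The ratio calls, 2516 above and 2482 below, stayed within 1.5 times under each alternative run. The counts went from 2211 to 3563 above and from 2179 to 3538 below. No paired analysis was possible because 1 group only was used and its columns carry no replicate numbers. The library block of the ratio fit pairs the regions within a library, and with no replicate block 2590 were above and 2413 below. Leaving out each library gave 2513 to 2586 above and 2479 to 2581 below. Each of the 24 named ratios kept its direction, but they were chosen as extremes and had the same sign in every library. Leaving out a library could therefore not have reversed them. Of 16 named gene-body levels 7 moved by more than the spread when 1 kb was taken off the length, DANCR most. Among transcripts of at least 10 kb were 26 of the 100 highest gene-body levels.

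The number of transcripts called between sets 1 and 2 depended on the libraries kept and on thresholds. For gene bodies, an adjusted p under 0.01 left 744 higher and 960 lower, and at least 1.5-fold left 498 and 997. Leaving out 1 library gave 372 to 3457 higher and 738 to 3499 lower. For promoter-proximal counts DESeq2 called 295 higher and 121 lower. At an adjusted p under 0.01 edgeR called 0 higher and 0 lower, where an unadjusted p under 0.05 gave 1205 and 910 and the smallest adjusted p was 0.0315. Leaving out 1 library gave 3 to 1741 higher and 4 to 1477 lower. Without a library of set 1 or 2, the error comes from the remaining pair only, and the lone library is assumed to vary like that pair. The cause was not tested. Promoter-proximal reads are fewer than gene-body reads in each library, and the median coefficient of variation between libraries was 28.7% for them against 14.2% for gene bodies.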
